A study of Mus musculus with 8 samples.

Results

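The comparison described here set 3 mouse tumours treated with antisense oligonucleotides (ASOs) against Smyd3 beside 3 tumours treated with control ASOs. All 6 tumours were also treated with anti-PD-1, an antibody that blocks an inhibitory receptor of T cells. MOC1, an established mouse oral squamous carcinoma cell line, had been grown in the flank of C57BL/6 mice, treatment ran for 32 days in both arms, and RNA came from the snap-frozen bulk tumour. The libraries were chosen by their titles, as those with a replicate number, and they were 6 of the 8 libraries of the series. Of the Smyd3 ASO tumours, replicates 1 and 3 carried the label R, for responder, and replicate 2 carried no response label. The 2 libraries left out were Smyd3 ASO tumours labelled non-R, for non-responder, and their values are given beside the others without entering the test. The control tumours carried no response label, so the ASO and the choice of tumours by response cannot be told apart in this comparison. Genes were kept when 10 or more reads fell on them in 2 or more of the 6 libraries, which left 16835 of the 55450 genes in the table.

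SMYD3 is a lysine methyltransferase of the SET and MYND domain family that has been studied as a promoter of growth in several carcinomas. An ASO is a short synthetic strand that pairs with an RNA in the cell and can lead to its degradation. Interferon-gamma from T and natural killer cells, and type I interferons from many cell types, act through JAK kinases and STAT factors. Their dimers bind GAS elements, and complexes that hold STAT2 and IRF9 bind the interferon-stimulated response element (ISRE). The genes they switch on encode guanylate-binding proteins, immunity-related GTPases, antiviral proteins, and the immunoproteasome and peptide transporters that load MHC class I molecules. In squamous carcinoma, these genes are known to be expressed where T cells are active, whereas genes known from skeletal muscle, fat and skin are not typical of squamous carcinoma cells. Which cells gave rise to such transcripts in these samples was not tested. In bulk tissue, fewer cells of a type and less RNA per cell cannot be told apart.

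Promoter sequences are shown for genes on which the results turn, because many genes that rose by less than 8-fold shared short interferon-type elements near their starts. The sequences are from RefSeq (GRCm38.p6) and read 5′ to 3′ on the gene's strand. Each line ends at the last base before the annotated start and holds 120 bases, or 150 for Bst2. Capitals mark the interferon-type motifs and, in Car9 only, the hypoxia element, described after them. Igtp, Irgm2 and Tgtp1 encode immunity-related GTPases, Gbp3 a guanylate-binding protein, Bst2 the antiviral membrane protein tetherin, and Car9 carbonic anhydrase 9, a hypoxia-induced enzyme.
Igtp, chr11:58199436-58199555, plus strand: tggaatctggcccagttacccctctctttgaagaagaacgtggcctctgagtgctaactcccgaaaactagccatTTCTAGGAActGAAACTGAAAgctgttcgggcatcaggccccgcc
Irgm2, chr11:58214857-58214976, plus strand: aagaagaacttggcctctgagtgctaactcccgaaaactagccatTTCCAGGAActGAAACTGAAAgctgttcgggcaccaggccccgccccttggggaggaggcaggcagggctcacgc
Tgtp1, chr11:48992247-48992366, minus strand: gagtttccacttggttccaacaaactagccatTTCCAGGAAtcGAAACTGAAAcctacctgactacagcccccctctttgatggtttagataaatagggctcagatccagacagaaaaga
Gbp3, chr3:142559924-142560043, plus strand: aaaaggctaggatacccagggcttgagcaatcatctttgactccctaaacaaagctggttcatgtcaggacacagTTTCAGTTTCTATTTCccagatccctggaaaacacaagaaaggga
Bst2, chr8:71537473-71537622, minus strand: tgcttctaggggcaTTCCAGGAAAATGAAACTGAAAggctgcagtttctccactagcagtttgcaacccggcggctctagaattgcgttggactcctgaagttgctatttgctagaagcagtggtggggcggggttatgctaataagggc
Car9, chr4:43506906-43507025, plus strand: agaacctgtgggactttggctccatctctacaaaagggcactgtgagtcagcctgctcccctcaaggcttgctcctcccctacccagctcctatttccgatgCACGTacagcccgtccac
In Igtp, Irgm2 and Tgtp1 a GAS-like TTCNNNGAA was followed by an ISRE-like motif (GAAA, any 2 bases, GAAA) with 2 bases between them. The ISRE-like match began 34 bases before the annotated start in Igtp, 64 in Irgm2 and 77 in Tgtp1. Bases around the motifs are nearly the same in Igtp and Irgm2 and partly shared by Tgtp1, so these matches are not independent. Gbp3 held overlapping ISRE-like matches on the other strand, 45 and 39 bases before its start, and Bst2 held overlapping ones at 130 and 124 bases with a GAS-like match at 136. The capitals in Car9 are CACGT, the reverse complement of the hypoxia element ACGTG, 18 bases before the start. Igtp also held ACGTG, 83 bases before its start, which is left in lower case.

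Each motif was searched on both strands from 250 bases before to 50 bases after the start, and matches of different motifs could overlap. Of the 113 genes called higher with a log2 fold change under 3, 83 had a promoter in the table, and 31 of them (37.3%) held the ISRE-like motif. The share was 3.95% (478 of 12090) over all kept genes with a promoter and 3.99% over all 27025 promoters. Among the genes called higher by a log2 fold change of 3 or more it was 2 of 90 (2.22%), and among the genes called lower 2 of 34 (5.88%). The GAS-like motif was in 15 of the 83 promoters (18.1%) against 8.4% of those of kept genes and 9.55% of the whole table. A MEF2-like motif (CTA, any 4 bases, TAG) is named for a family of muscle transcription factors. It was in 11 of the 90 promoters of the strongly higher genes (12.2%) and in 3.81% of those of kept genes and 4.23% of the table. It was also in 7 of the 83 promoters of the less strongly higher genes (8.43%). In the skeletal muscle sarcomere and contraction list it was in 2 of 24 (8.33%). Of the interferon-inducible GTPases, 10 of 17 had a promoter entry. Among these 9 held the ISRE-like motif and 6 the GAS-like motif, and Ifi47 held neither. Genes with nearly the same promoter bases, such as Igtp and Irgm2, were counted separately. ACGTG was in 15 of 21 promoters of the hypoxia and glycolysis list (71.4%), in 27.8% of those of kept genes and in 21.8% of the table. Among the genes called lower it was in 10 of 34 (29.4%), near the share of kept genes.

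The 6 libraries held 23282911.9 to 27258700.1 expected reads, so that 1 CPM, the usual unit of a gene's reads relative to the scaled library total, stood for 22.3 to 27.9 reads. Scaling factors lay between 0.9601 and 1.04. Mitochondrial transcripts took 1.94% to 2.14% of reads in control tumours and 2.24% to 2.58% in Smyd3 ASO tumours. The labels do not say that replicates came from separate animals, although each library is titled as its own tumour sample, so the p-values measure the spread between these samples. In a principal component analysis of the 6 libraries the first component (53.4% of variance) placed the controls between -61.81 and -39.39 and the Smyd3 ASO tumours between 25.6 and 90.75. Control 2 lay apart on the second component (17.7%) at -62.39, and Smyd3 ASO tumour 2 on the third (12.9%) at -57.61. Markers of the labelled squamous carcinoma were expressed in all 6 tumours. Krt5 was at 9593, 14550 and 10040 CPM in controls and 7814, 10820 and 6707 CPM in Smyd3 ASO tumours, and the lowest values of Krt14, Trp63 and Epcam were 6693, 294.1 and 304 CPM.

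Smyd3 itself (chromosome 1, minus strand, mm10) was lower in each Smyd3 ASO tumour than in each control but did not pass the test. It was at 10.7, 11.95 and 10.6 CPM in the controls and at 8.69, 4.57 and 4.34 CPM in Smyd3 ASO tumours 1, 2 and 3. Tumour 1, labelled R, therefore kept 78.5% of the control mean, whereas tumours 2 and 3 kept 41.3% and 39.2%. The means were 11.1 ± 0.764 and 5.87 ± 2.45 CPM (SD, n = 3 each). The two-sided exact permutation test gave p = 0.1, the smallest that 3 against 3 can give. The fit over all genes gave a log2 fold change of -0.92 (SE 0.30; edgeR quasi-likelihood, adjusted p = 0.20), and no alternative called it. The non-R tumours were at 9.28 and 4.88 CPM, or 83.8% and 44.1% of the control mean, so a tumour of each response label stood at either end. Of the other family members, Smyd2, Smyd4 and Smyd5 had log2 fold changes of 0.31, 0.12 and 0.18 and were not called. Smyd1, the muscle member of the family, rose and is described with the muscle genes.

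Across all kept genes, 285 (1.69%) were called at an adjusted p of 0.05 by edgeR's quasi-likelihood test, 237 higher (1.41%) and 48 lower (0.285%) in the Smyd3 ASO tumours. In all 285 the values of the groups did not overlap, against 23.2% of all kept genes (12.4% with Smyd3 ASO higher, 10.9% with control higher). The lowest adjusted p was 0.0039, shared by Tgtp1 and Gbp3. The higher genes are described in 2 size classes, divided at a log2 fold change of 3 (8-fold). Of the 124 at or above it, 22 were on the muscle lists, 1 was on an immune list (Izumo1r), and 85 had a control mean under 1 CPM. Of the 113 below it, 54 were on immune lists and 6 had a control mean under 1 CPM. The 48 lower genes were all protein coding, with a median log2 fold change of -1.01 (range -2.76 to -0.53).

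**Figure D1:**
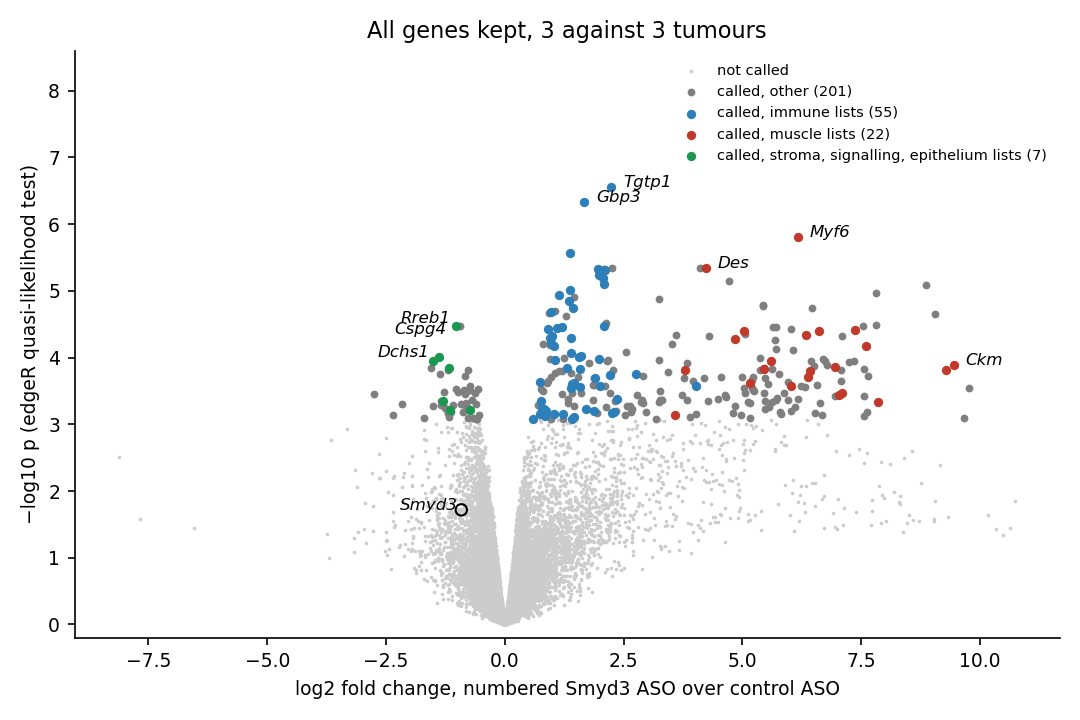
Log2 fold change of numbered Smyd3 ASO over control ASO tumours (x) against −log10 p of edgeR's quasi-likelihood test (y) for the 16835 kept genes, 3 tumours against 3. Called immune-list genes (blue, 55) sit mostly below a log2 fold change of 3 and called muscle-list genes (red, 22) above it, and Smyd3 (open circle) lies among the genes not called.

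The number of calls depended on which libraries entered. Without control 1, edgeR called 0 genes (2343 at an unadjusted p under 0.05, lowest adjusted p 0.076), while DESeq2 called 1018 and limma voom 2 (both added after the data were seen). Without control 3 edgeR again called 0 (2206 at an unadjusted p under 0.05, lowest adjusted p 0.074), while DESeq2 called 1019 and limma voom 1. Without control 2, 145 genes were called, and leaving out Smyd3 ASO tumour 1, 2 or 3 gave 211, 181 or 123. Those fits called 7, 20 and 5 genes lower and 204, 161 and 118 higher, and the fit without control 2 called 32 lower and 113 higher. The sign of all 285 genes was kept in each of these fits. With all 6 libraries DESeq2 called 1297 genes (7.7% of those kept), 853 higher (5.07%) and 444 lower (2.64%). Limma voom called 113 (0.671%), 98 higher (0.582%) and 15 lower (0.0891%).

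**Figure D2:**
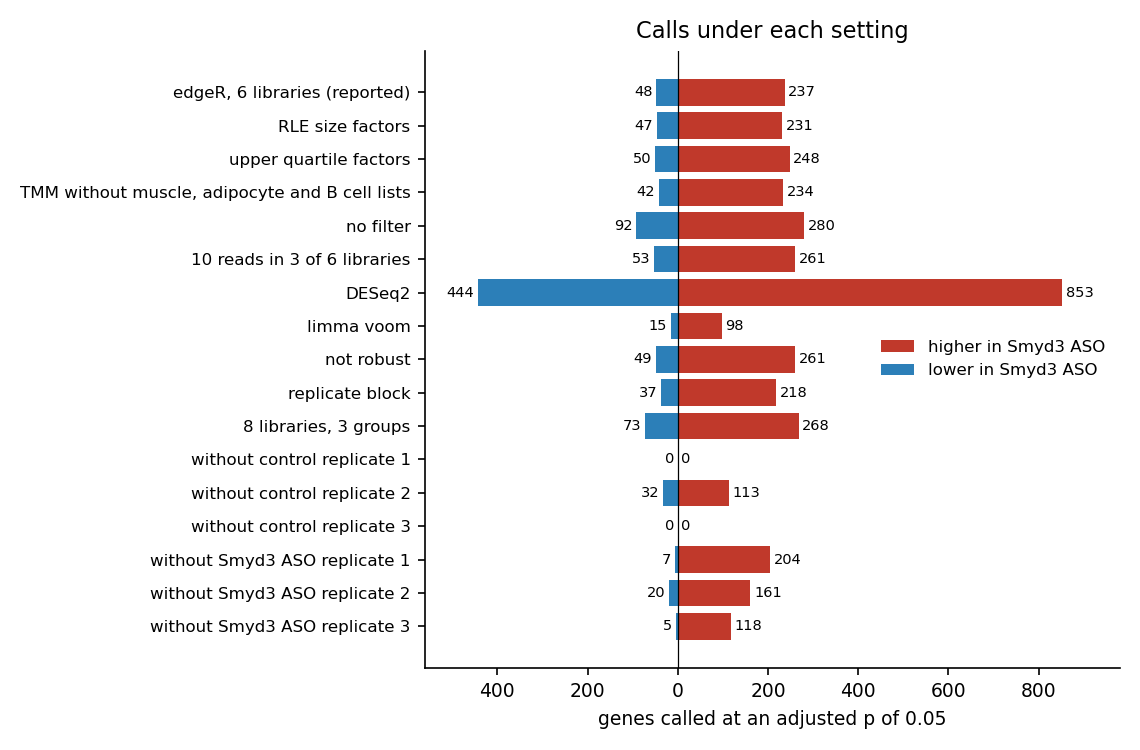
Number of genes called at an adjusted p of 0.05 (x, higher to the right and lower to the left of 0) under each setting (y). The bars vanish without control 1 or control 3 and are longest for DESeq2, with 853 higher and 444 lower genes.

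No interferon ligand or receptor was called. None of the 7 kept members of the ligand and receptor list passed, with a median log2 fold change of 0.32, and Ifnb1 and the other type I and III ligands on the list did not reach the read minimum. Ifng, the interferon of T and natural killer cells, was at 0.620, 0.895 and 0.462 CPM in controls and 2.19, 2.09 and 3.52 CPM in Smyd3 ASO tumours (log2 fold change 1.98, SE 0.41; edgeR adjusted p = 0.075). Its 3 values in Smyd3 ASO tumours lay above all controls. Receptor subunit Ifngr2 moved from 46.5 to 51.7 CPM in controls to 55.6 to 59.2 CPM, a log2 difference of 0.24 that was not called.

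Among 20 JAK-STAT and IRF regulators 4 were called, all higher, and 13 had every Smyd3 ASO tumour above every control. In 1 other member every control was above every Smyd3 ASO tumour. The shares over all kept genes were 1.41% called higher, 12.4% without overlap with Smyd3 ASO higher and 10.9% with control higher. Irf1, an interferon-induced activator of MHC class I and immunoproteasome genes, went from 167, 198 and 178 CPM to 365, 370.3 and 422 CPM. Stat2 rose by a log2 fold change of 1.03 and Batf2, an interferon-induced factor, by 1.87, with adjusted p of 0.046 and 0.044 (edgeR). The kinases Jak1, Jak2 and Tyk2 had log2 differences of -0.23, 0.11 and -0.17 and were not called. Irf7, at 65.9 to 131 CPM in controls and 183 to 284 CPM in Smyd3 ASO tumours, and Nlrc5, the activator of MHC class I genes, did not pass either (edgeR adjusted p = 0.11 and 0.069).

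The interferon-inducible GTPases, enzymes that attack the vacuoles of intracellular pathogens, were called nearly throughout. Of 17 kept members 16 rose, against 1.41% called higher over all kept genes. The list's median log2 fold change was 1.97, against -0.00072 over all kept genes. Tgtp1 was at 180.1, 189 and 199.8 CPM in controls and 819, 890.1 and 973 CPM in Smyd3 ASO tumours. The arms were far apart with little spread in either, and the log2 fold change was 2.24 (SE 0.12; edgeR adjusted p = 0.0039). Gbp3 was at 76.2, 80.7 and 75.3 CPM and rose to 238, 248 and 254 CPM (log2 fold change 1.67, SE 0.09). Irgm2 went from 109, 114 and 131 CPM to 404, 425 and 546 CPM, and Igtp from 124, 142 and 142 CPM to 476, 582 and 706 CPM. These last loci overlap on the same strand, and Tgtp1 has a near copy in Tgtp2, so reads may have been split between partners. Gbp11, at 0.124 to 1.52 CPM in controls and 1.42 to 2.30 CPM in Smyd3 ASO tumours, was the member not called, and control 2 overlapped the Smyd3 ASO tumours.

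Of 30 antiviral interferon-stimulated genes 15 were called higher, against 1.41% of all kept genes. All 30 had a positive log2 fold change (median 1.38). Bst2, which tethers virus particles to the membrane, was at 38.7, 50.5 and 49.1 CPM in controls and 101, 135 and 125 CPM in Smyd3 ASO tumours. Zbp1, a sensor of Z-form nucleic acid, went from 67.4, 66.2 and 79.0 CPM to 147, 222 and 189 CPM. Mx1, an antiviral dynamin-like GTPase, was low in both arms, at 5.91, 6.40 and 5.76 CPM and then 13.97, 21.2 and 18.0 CPM. Parp9, an ADP-ribosyltransferase partner of DTX3L, rose by a log2 fold change of 1.06 and Ifit3 by 2.0 (edgeR adjusted p = 0.023 and 0.031). Isg15 and Ifit1 missed the threshold at 0.053 and 0.094, with control 2 lowest of the controls in both. Among 15 nucleic acid sensors and adaptors, 2 were called, Zbp1 and Dhx58. On that list 8 were without overlap with Smyd3 ASO higher, against 12.4% of all kept genes. Samhd1 was at 430.3, 239 and 351 CPM in controls and 681, 848 and 846 CPM in Smyd3 ASO tumours, with an adjusted p of 0.054 (edgeR).

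MHC class I presentation rose in 14 of 18 members, and 16 of the 18 were without overlap. The shares over all kept genes were 1.41% called higher and 12.4% without overlap with Smyd3 ASO higher. Psmb9, an immunoproteasome subunit, was at 84.2, 77.7 and 96.6 CPM in controls and 213, 213 and 239 CPM in Smyd3 ASO tumours (log2 fold change 1.36, SE 0.12; edgeR adjusted p = 0.010). Psmb10 went from 44.0, 47.4 and 41.6 CPM to 105, 113 and 142 CPM, and the proteasome activator Psme2 from 115, 105 and 117 CPM to 219, 212 and 227 CPM. Tap1, which carries peptides into the endoplasmic reticulum, rose from 282, 259 and 297 CPM to 609, 608 and 631 CPM. Tap1 and Psmb9 overlap on opposite strands, and the strand setting of counting is not given, so reads may have been split between them. The heavy chains H2-K1 and H2-D1 rose by log2 fold changes of 0.76 and 0.60. The members not called were B2m (0.62, edgeR adjusted p = 0.081) and the general endoplasmic reticulum chaperones Calr, Pdia3 and Canx. Class II presentation was not called in any of 11 members, though 8 did not overlap and the median log2 fold change was 1.03. H2-DMb1, a peptide exchanger, came closest, at 45.3, 69.8 and 54.3 CPM in controls and 113, 106 and 148 CPM in Smyd3 ASO tumours (edgeR adjusted p = 0.0503).

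Lymphocyte genes had positive median log2 fold changes, 1.76 for chemokines, 1.72 for the T cell receptor list and 1.63 for cytotoxic genes, with few calls. Over all kept genes 1.41% were called higher and 12.4% were without overlap with Smyd3 ASO higher. Of 17 chemokine genes and receptors 1 was called, the CXCR3 ligand Cxcl10, at 31.3, 54.7 and 19.6 CPM in controls and 159, 218 and 166 CPM in Smyd3 ASO tumours. Its locus overlaps Art3, also called higher, on the opposite strand, and the strand setting of counting is not given. Of 20 T cell receptor and coreceptor genes 2 were called. Cd8a, the coreceptor of cytotoxic T cells, was at 3.97, 6.72 and 5.05 CPM and then at 17.7, 17.9 and 39.1 CPM (log2 fold change 2.25, SE 0.38; edgeR adjusted p = 0.045). Cd8b1 went from 1.82, 2.42 and 1.51 CPM to 7.15, 6.63 and 14.5 CPM, while Cd4 overlapped between arms at 6.81 to 19.2 and 8.99 to 24.9 CPM. The sum over the T cell list was 99.8, 191 and 109 CPM in controls and 187, 161 and 351 CPM in Smyd3 ASO tumours, so control 2 lay within the range of the other arm. The part of this in the interferon results was not tested.

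Cytotoxic genes were not called in any of 20 members, though 13 did not overlap. The shares over all kept genes were 1.41% called higher and 12.4% without overlap with Smyd3 ASO higher. Gzmb, a protease of cytotoxic granules, was at 2.48, 5.01 and 3.07 CPM in controls and 13.3, 13.1 and 38.3 CPM in Smyd3 ASO tumours (edgeR adjusted p = 0.069). Smyd3 ASO tumour 3 was the highest for Gzmb and also for Gzma, at 71.6 CPM against 5.24 and 14.03 CPM in tumours 1 and 2. Checkpoint genes gave 0 of 16 calls; Cd274, the ligand of PD-1, was at 42.0, 51.3 and 38.2 CPM and then 78.4, 95.2 and 166 CPM, with an adjusted p of 0.080 (edgeR). Of 10 regulatory T cell genes Izumo1r, a folate receptor family member of those cells, was called, at 0.0827, 0.179 and 0.042 CPM and then 1.26, 1.47 and 2.37 CPM. Foxp3, their defining factor, was at 0.827 to 2.10 CPM and 1.47 to 6.10 CPM and was not called.

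B and plasma cell genes had a median log2 fold change of 2.60 with 0 of 12 called, and the tumours of 1 arm disagreed. Ighm was at 7.69, 9.36 and 22.2 CPM in controls and 279, 16.3 and 480 CPM in Smyd3 ASO tumours. Tumours 1 and 3 stood far above the controls and tumour 2 within them. Without Smyd3 ASO tumour 1, 2 or 3, or under the other settings, the list's median ranged from 0.41 to 3.12.

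Myeloid lists gave few calls, beside 1.41% called higher and 12.4% without overlap with Smyd3 ASO higher over all kept genes. Of 19 macrophage and monocyte genes 2 did not overlap and 1 was called, Cd14, the lipopolysaccharide coreceptor, at 21.8, 19.7 and 24.7 CPM and then 40.4, 34.1 and 40.2 CPM. The list's median was 0.09, and it changed sign under 3 of 22 alternatives. No neutrophil gene (0 of 13) or mast cell gene (0 of 10) was called, with medians of 0.16 and 1.17. Of 16 dendritic cell genes 6 did not overlap, with Smyd3 ASO higher, and the median was 1.14 (0.71 to 1.57 over the alternatives). The 1 called was Bst2, which is also on the antiviral list. Of 13 inflammatory cytokines Tnf was called, at 9.35, 9.09 and 9.25 CPM and then 14.9, 18.5 and 16.2 CPM.

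**Figure D3:**
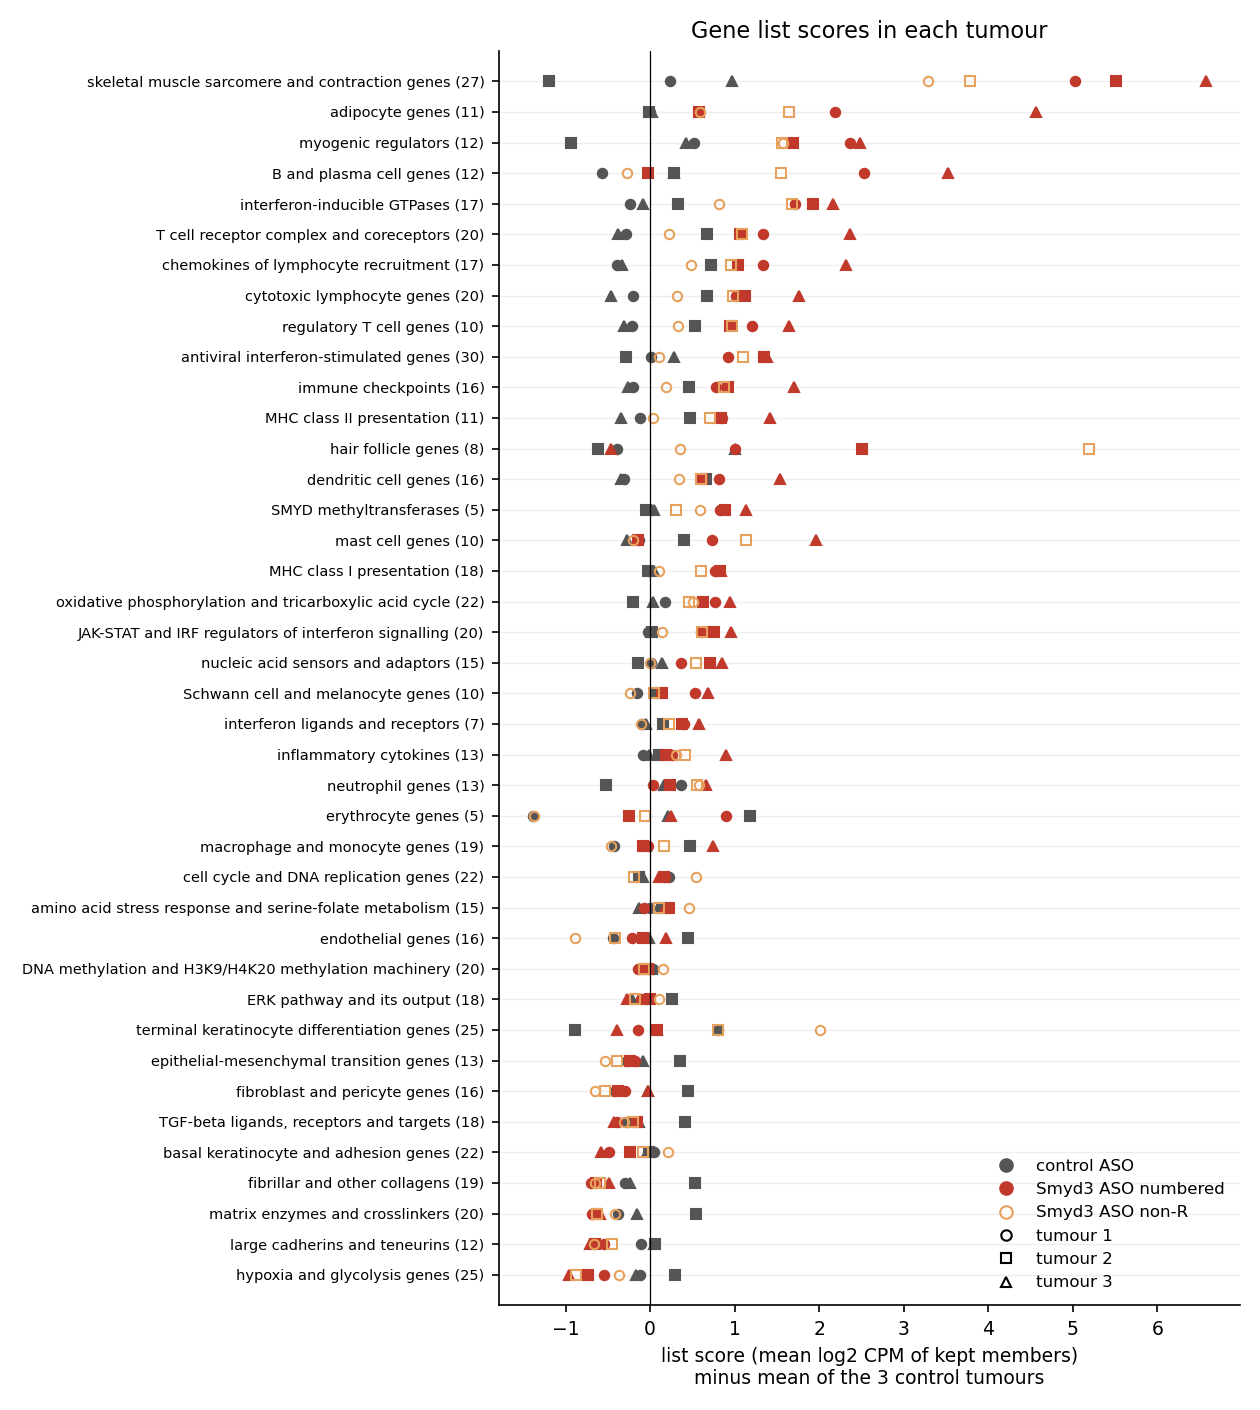
List score, the mean log2 CPM of a list's kept members, minus the mean of the 3 controls (x), for 40 gene lists (y, with the number of kept members) in each of the 8 tumours. The interferon-inducible GTPase, skeletal muscle and adipocyte scores separate the arms, with a wide spread in the last, whereas the B cell and macrophage scores overlap.

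**Figure D4:**
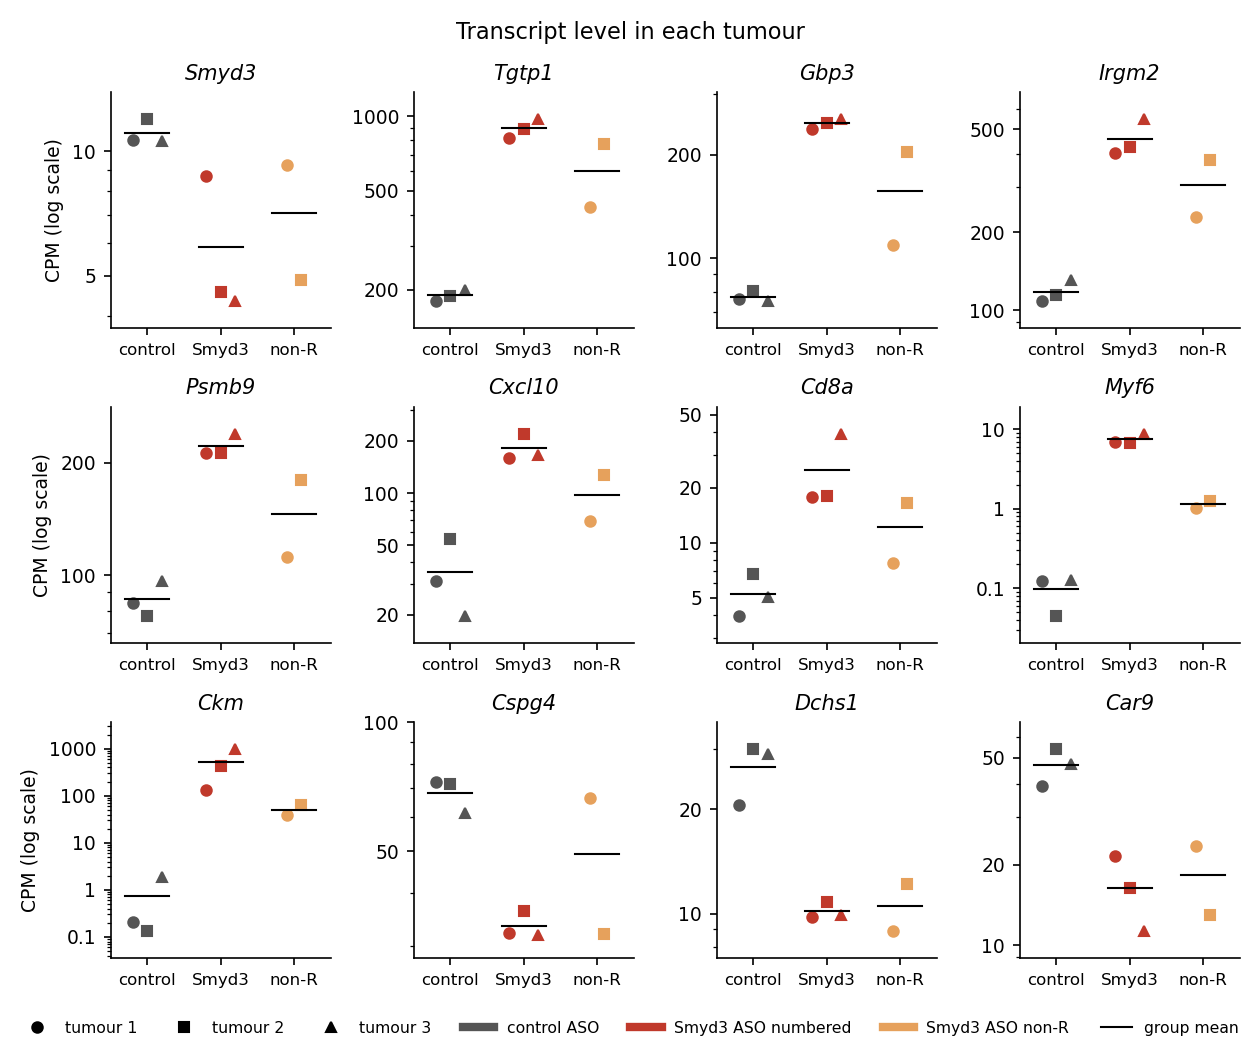
CPM on a log scale (y) in each control ASO, numbered Smyd3 ASO and non-R Smyd3 ASO tumour (x) for 12 genes, with the group mean as a line. Tgtp1 and Gbp3 show narrow groups, Ckm spreads from 132 to 975 CPM within the Smyd3 ASO arm, and Smyd3 is highest in tumour 1 of that arm.

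The largest differences were in skeletal muscle genes. Of 27 kept sarcomere and contraction genes 21 rose, 26 were without overlap, and the median log2 fold change was 6.03. The shares over all kept genes were 1.41% called higher and 12.4% without overlap with Smyd3 ASO higher. Acta1, the actin of muscle thin filaments, was at 15.1, 8.82 and 20.9 CPM in controls and 595, 1114 and 2640.0 CPM in Smyd3 ASO tumours (log2 fold change 6.60, SE 0.71; edgeR adjusted p = 0.015). Ckm, muscle creatine kinase, went from 0.207, 0.134 and 1.85 CPM to 132, 440.1 and 975 CPM. Des, the intermediate filament of muscle, rose from 15.6, 12.3 and 14.8 CPM to 229, 181 and 394 CPM. Tnnt3, Ryr1, Pvalb and Atp2a1, of contraction and calcium handling, rose by log2 fold changes of 7.38, 5.03, 9.29 and 7.86. Of the defining markers Acta1, Ckm, Myh1 and Myh4 none was at 0 in any tumour, and Pvalb, a calcium buffer of fast fibres, was at 0 in control 2. Smyd1, a muscle methyltransferase needed for sarcomere assembly, was at 0.455, 0.313 and 0.631 CPM in controls and 8.12, 19.2 and 41.5 CPM in Smyd3 ASO tumours.

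Summed over the list, muscle transcripts were at 454 to 544 CPM in controls and at 3681, 7155 and 15640.0 CPM in Smyd3 ASO tumours 1, 2 and 3. The non-R tumours lay between the arms at 1381 and 1633 CPM. With the muscle, adipocyte and B cell lists left out of the scaling, 276 genes were called, 273 of them among the 285. The part of muscle RNA in other results was not tested. Several muscle genes had almost no reads in controls, where fitted fold changes depend on the prior count. Cox8b, the muscle form of a cytochrome oxidase subunit, had 0 reads in the 3 controls together and 353 in the Smyd3 ASO tumours, and was at least 105.7-fold higher against a floor of 3 reads over the group. Ppp1r27, likewise at 0 reads, was at least 97.6-fold higher. Ckmt2, mitochondrial creatine kinase of muscle, had 1 read in controls and a ratio of 637 (exact 95% counting interval 114 to 25190). Sypl2, of the muscle triad membrane, had 3 reads and a ratio of 609.6 (208 to 2958), and Abra, an actin-binding protein of muscle, had 2 reads and a ratio of 268 (73.8 to 2215). Pgam2 and Car3, enzymes of muscle, rose by log2 fold changes of 7.82 and 7.65.

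Of 12 myogenic regulators 1 was called and 9 did not overlap, against 1.41% and 12.4% of all kept genes, with Smyd3 ASO higher. Myf6, a myogenic factor that persists in mature fibres, was at 0.124, 0.0448 and 0.126 CPM in controls and 6.95, 6.78 and 8.65 CPM in Smyd3 ASO tumours (log2 fold change 6.16, SE 0.42; edgeR adjusted p = 0.0081). Those 3 values lay close together, unlike those of Ckm. Pax7 and Myf5, of muscle stem cells, did not reach the read minimum, and Myod1 and Myog were not called. Sox8, a SOX factor on none of the lists, rose from 0.248, 0.269 and 0.252 CPM to 3.86, 4.85 and 4.70 CPM.

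Genes known from other tissues were less even, and their calls stand beside 1.41% called higher over all kept genes. Of 11 adipocyte genes Plin4, a lipid droplet coat protein, was called, at 0.372, 0.313 and 0.420 CPM in controls and 6.86, 9.69 and 56.4 CPM in Smyd3 ASO tumours. Adipoq, the fat hormone adiponectin, was at 1.14, 0.0388 and 17.1 CPM in Smyd3 ASO tumours and was not called, and the list's median log2 fold change was 5.27, and 0.27 under its lowest alternative. No member was called among 8 hair follicle, 10 Schwann cell and melanocyte, 16 endothelial and 5 erythrocyte genes. Sox10, of Schwann cells and melanocytes, was at 0.165, 0.179 and 4.08 CPM in controls and 63.3, 13.4 and 69.6 CPM in Smyd3 ASO tumours (edgeR adjusted p = 0.11). Its list did not rise as a whole, with a median log2 fold change of -0.18 and 4 of 10 members above 0. Mbp, on the same list, was at 54.0, 45.9 and 48.6 CPM in controls. In Smyd3 ASO tumours it was at 34.1, 28.0 and 34.9 CPM and was not called (edgeR adjusted p = 0.072).

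Stromal lists had negative medians and few calls. Of 19 collagens 2 were called, both lower, 9 were without overlap, and 17 had a negative log2 fold change (median -0.67). Over all kept genes 0.285% were called lower and 10.9% were without overlap with control higher. Col12a1, a fibril-associated collagen, fell from 425, 672 and 441 CPM in controls to 192, 174 and 172 CPM (log2 fold change -1.52, SE 0.20; edgeR adjusted p = 0.023). Col6a3, of microfibrils, was at 362, 608 and 420.2 CPM and then 213, 207 and 202 CPM. Control 2 was the highest of the 6 tumours for both, and for Col1a1 at 4147 CPM against 2229 and 2356 CPM in the other controls and 1333 to 1473 CPM in Smyd3 ASO tumours. Col1a1 was not called (edgeR adjusted p = 0.10).

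The fibroblast and matrix enzyme lists had 1 call each, beside 0.285% called lower over all kept genes. Of 16 fibroblast and pericyte genes Cspg4, the pericyte proteoglycan NG2, fell from 72.4, 71.8 and 61.3 CPM to 32.3, 36.2 and 31.8 CPM. For Cspg4 control 2 lay within the other controls, while summed over the list it was the highest tumour, at 8007 CPM against 4290.0 and 5338 CPM in the other controls and 3804 to 4252 CPM in Smyd3 ASO tumours. Of 20 matrix enzymes and crosslinkers Loxl2, a lysyl oxidase, fell from 129, 205 and 129 CPM to 61.9, 69.5 and 56.4 CPM. None of 18 TGF-beta genes and none of 13 epithelial-mesenchymal transition genes was called, with medians of -0.26 and -0.24. Lrrc15, a membrane protein of cancer-associated fibroblasts, fell from 161, 198 and 163 CPM to 65.4, 65.4 and 30.4 CPM. Lrp1, an endocytic receptor, went from 637, 978 and 561 CPM to 265, 282 and 314 CPM.

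Cell adhesion proteins of the cadherin and teneurin families gave 2 called genes of 12, both lower, beside 0.285% called lower over all kept genes. Dchs1, a giant protocadherin of planar polarity, was at 20.6, 29.9 and 28.9 CPM in controls and 9.79, 10.8 and 9.91 CPM in Smyd3 ASO tumours. Tenm4, a teneurin, went from 136, 99.4 and 113 CPM to 47.7, 59.6 and 47.2 CPM, and Cdh11, the cadherin of mesenchymal cells, from 67.0, 72.7 and 69.5 CPM to 36.6, 41.4 and 44.3 CPM. Among the lower genes with smallest p, Rreb1, a zinc finger factor of RAS signalling, was the first, at 112, 107 and 107 CPM and then 55.3, 62.0 and 52.6 CPM (log2 fold change -0.94, SE 0.10; edgeR adjusted p = 0.015). Spen, a transcriptional repressor, fell from 147, 106 and 124 CPM to 48.9, 63.7 and 52.5 CPM. Rcor2, a corepressor of the LSD1 complex, fell from 24.2, 33.8 and 21.8 CPM to 11.6, 11.3 and 8.54 CPM. Brinp3 and Prss35 were low in both arms and fell by 1.56 and 2.36 on the log2 scale, and Grin1, an NMDA receptor subunit, fell from 12.1, 10.97 and 6.52 CPM to 2.11, 2.91 and 1.54 CPM.

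All 25 hypoxia and glycolysis genes had a negative log2 fold change (median -0.59) and 16 were without overlap, yet 1 was called. The shares over all kept genes were 10.9% without overlap with control higher, 0.285% called lower and 1.41% called higher. Car9 was at 39.4, 53.9 and 47.4 CPM in controls and 21.5, 16.3 and 11.3 CPM in Smyd3 ASO tumours (log2 fold change -1.52, SE 0.25; edgeR adjusted p = 0.039). Slc2a1, the glucose transporter GLUT1, was at 660.2, 938 and 452 CPM and then 265, 232 and 137 CPM, and Bnip3, of mitophagy, at 393, 718 and 378 CPM and then 228, 191 and 145 CPM. Neither passed, with adjusted p of 0.070 and 0.081 (edgeR). Control 2 was the highest for both. Of 22 oxidative phosphorylation and tricarboxylic acid cycle genes, 2 were called, and both are muscle forms: Cox8b and Cox6a2, the latter from 0.331, 0.179 and 0.168 CPM to 7.03, 7.17 and 16.0 CPM. Of 15 amino acid stress and serine-folate genes Aldh1l2, a mitochondrial folate enzyme, fell from 22.99, 25.8 and 20.1 CPM to 11.1, 9.96 and 7.32 CPM.

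Genes of keratinocytes, the cell cycle, the ERK pathway and DNA or histone methylation were mostly not called. Of 22 basal keratinocyte genes 20 had a negative log2 fold change (median -0.48). Of the 22, 8 were without overlap with control higher, against 10.9% of all kept genes. The list score was 9.06 to 9.15 in controls and 8.51 to 8.85 in Smyd3 ASO tumours. On this list 1 gene was called, beside 0.285% called lower over all kept genes. That gene, Dsp, encodes the desmosome plaque protein desmoplakin, and it fell from 1772, 1682 and 1706 CPM to 1084, 1136 and 906 CPM (log2 fold change -0.72; edgeR adjusted p = 0.043). None of 25 terminal keratinocyte genes, 22 cell cycle genes, 18 ERK pathway genes or 20 genes of DNA methylation and H3K9 or H4K20 methylation was called. Their medians were -0.26, 0.17, -0.13 and -0.14. Mki67, the proliferation antigen, was at 299, 214 and 259 CPM and then 248.6, 298 and 239 CPM, and Map3k2, a reported SMYD3 substrate kinase, had a log2 difference of 0.01.

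The lower genes had long transcripts. The longest annotated transcript had a median of 5842 bases in the 48 lower genes, 2716 in the 237 higher genes and 3118 over all kept genes. Of the lower genes 18 (37.5%) exceeded 8000 bases, against 13 (5.49%) of the higher and 842 (5.0%) of all kept genes. Over all 842 kept genes longer than that, the median log2 fold change was -0.11, and over the other 15993 it was 0.0052. Lower genes also had more G and C in the longest annotated transcript (median 54.5% against 49.6% over all kept genes). The part of length, base composition or RNA quality in the calls was not tested.

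**Figure D5:**
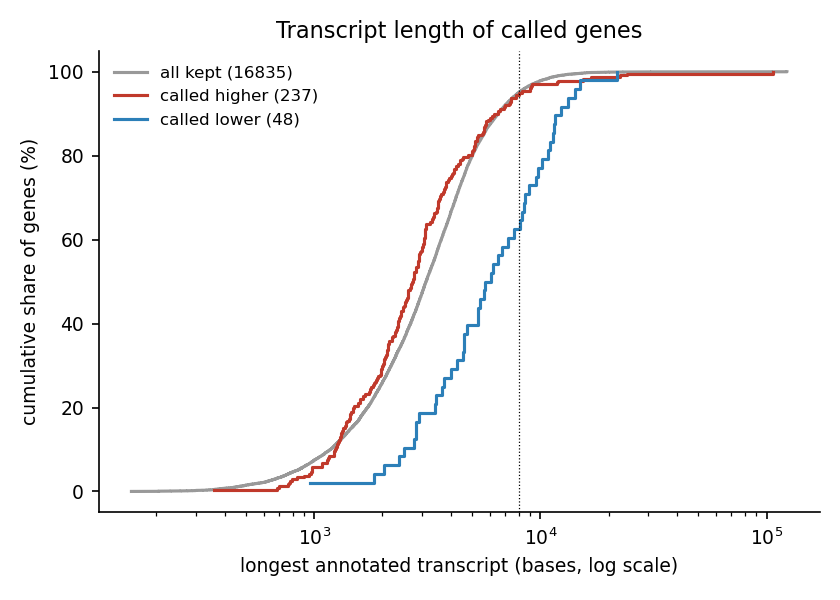
Cumulative share of genes (y, %) by length of the longest annotated transcript (x, bases, log scale) for all kept, called higher and called lower genes. The curve of the 48 lower genes lies to the right, with 37.5% of them beyond 8000 bases, marked by the dotted line.

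The 3 Smyd3 ASO tumours were not equally far from the controls. Of the 237 higher genes tumour 1 was nearest to the controls in 175, tumour 2 in 51 and tumour 3 in 11, and tumour 3 was the farthest in 186. Of the 48 lower genes tumour 2 was nearest in 27, tumour 1 in 16 and tumour 3 in 5, and tumour 3 was the farthest in 31. For genes with a log2 fold change of 3 or more the median distance from the control mean was 4.15, 4.68 and 5.75 log2 units in tumours 1, 2 and 3. For the 113 genes with a smaller rise it was 1.25, 1.56 and 1.56, so the tumours differed more in the first class.

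The non-R tumours, whose values did not enter the calls, are given here for the same genes. Those genes were called from the difference between the numbered tumours and these controls. Values nearer the controls in tumours outside the calls cannot be told apart from the effect of that choice. The median distance from the control mean was 2.52 and 2.81 log2 units for the strongly higher genes, 0.41 and 1.08 for the others, and -0.57 and -0.65 for the lower genes. Tgtp1 was at 429.8 and 777 CPM and Gbp3 at 109.7 and 203 CPM in them, between the arms. Psmb9 was at 112 and 180.4 CPM, and Cd8a at 7.76 and 16.5 CPM. In each of these genes non-R tumour 2 lay closer to the numbered Smyd3 ASO tumours than non-R tumour 1 did. Cspg4 was at 66.7 CPM in non-R tumour 1, within the controls, and at 32.0 CPM in non-R tumour 2, within the Smyd3 ASO tumours. The difference between numbered and non-R tumours was not tested here.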

How the data were processed

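Bulk polyA RNA from 8 tumours was prepared with a stranded mRNA kit, per the labels. The authors deposited expected counts per gene and library, made with RSEM 1.3.0, STAR 2.7.0f, cutadapt 1.18 and bcl2fastq 2.17 on mm10 (roles not stated), per the submitters' processing notes. The annotation and the strand setting of counting are not given in the sources used here. All 55450 gene IDs and symbols match GENCODE M21, which gave positions and lengths. RSEM shares reads between overlapping or near-identical genes, and 78 of the 285 called genes overlap another kept gene, 26 on the same strand.

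Expected counts were rounded to whole numbers. Genes with 10 reads in 2 of the 6 numbered libraries were kept, scaled by TMM and tested with edgeR 4.0.16 (R 4.3.3; robust quasi-likelihood, two-sided, Benjamini-Hochberg over all 16835 genes, threshold 0.05). The standard error is the absolute log2 fold change divided by the square root of F. CPM uses TMM library sizes and is not corrected for length, so it compares tumours and not genes. Counting intervals and floors cover counting error only. Alternatives used DESeq2 1.42.0, limma 3.58.1 (voom), other scalings and filters, the replicate number as a block, all 8 libraries, and each library left out. Scripts were tested on simulated data.

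Members and lists were chosen with earlier results of these data known, and list counts were not tested as sets. Named genes were Smyd3, the 10 largest changes and the 8 smallest p in each direction among called genes with a mean log2 CPM of 0 or more, and up to 4 called genes per list (2 smallest p where none was called); other list members are named by role. A few genes that this rule names are not reported here.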

Additional observations from a re-analysis of the deposited data

Results flagged for a closer look

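The hair follicle list score, the mean log2 CPM of 8 kept hair follicle genes, was 5.43 in non-R tumour 2, a library outside the comparison. It drew attention because it lay above every other tumour, at -0.38 to 1.23 in controls, -0.24 to 2.73 in the numbered Smyd3 ASO tumours and 0.58 in non-R tumour 1. Krt27 and Krt71, keratins of the inner root sheath, were at 47.6 and 26.96 CPM in that tumour, and in the 6 numbered tumours reached at most 4.85 and 12.98 CPM, both in Smyd3 ASO tumour 2.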

How the results depend on the processing

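The number of genes called (285, with 237 higher and 48 lower) kept within 1.5 times under RLE or upper quartile scaling, scaling without the muscle, adipocyte and B cell lists, a filter of 10 reads in 3 libraries and a non-robust fit. DESeq2 gave 1297 (853 higher, 444 lower) and shared all 285; its calls were 65.8% higher against 83.2%. Limma voom gave 113 (98 and 15). Without a filter 372 were called, 92 of them lower, and with all 8 libraries 341, 73 of them lower. Without one replicate edgeR gave 0 to 211 calls, 0 to 204 higher and 0 to 32 lower, from 5 libraries in place of 6. In fits added after seeing the data, DESeq2 gave 1018 (669 and 349), 1601 (945 and 656) and 1019 (666 and 353) without control 1, 2 and 3, and voom 2 (2 and 0), 67 (54 and 13) and 1 (1 and 0). The cause was not tested. The sign of all 285 was kept under each of the 22 alternatives. Smyd3 stayed uncalled, at -1.29 to -0.73.

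With the replicate number as a block 255 genes were called (218 higher, 37 lower; 184 shared) and Smyd3 was at -0.99. Deviations from the group means correlated at -0.04, 0.00021 and 0.08 in same-numbered tumours, and at -0.16 to 0.14 in the others. With 3 tumours per arm these values cannot settle pairing. The labels do not say that the numbers pair animals, so they were not taken as pairs.

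Among the 95 named genes other than Smyd3, the sign reversed for Alas2 and Hba-a1, which were not called. Without control 1, Alas2 gave -0.19 in edgeR, -0.21 in DESeq2 and -0.37 in voom, and Hba-a1 -0.23, -0.24 and -0.14. Without Smyd3 ASO tumour 1 they gave -0.16 and -0.029, and leaving out one replicate gave -0.19 to 0.63 for Alas2 and -0.23 to 1.09 for Hba-a1. The cause was not tested. Over named genes and alternatives, 452 values lost their call and 78 gained one. The medians of the macrophage, neutrophil, hair follicle, Schwann cell, endothelial, erythrocyte and ERK lists changed sign in 1 to 10 alternatives. Depth limits genes under 1 CPM, where 1 CPM stood for 22.3 to 27.9 reads.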

Other observations

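Some called genes that were on none of the lists are given here, chosen after their values were seen. Apol10b, of the apolipoprotein L family, was at 12.1, 12.9 and 15.8 CPM in controls and 48.2, 61.3 and 65.0 CPM in Smyd3 ASO tumours. Gm12250 is annotated as a processed pseudogene and lies near Igtp and Irgm2 on chromosome 11. It was at 16.5, 14.2 and 17.0 CPM and then 62.4, 71.6 and 94.4 CPM. The interferon-linked ubiquitin-conjugating enzyme Ube2l6 went from 44.4, 36.3 and 39.3 CPM to 97.3, 124 and 106 CPM, and Il18bp, the soluble decoy of interleukin-18, from 23.2, 34.7 and 22.8 CPM to 62.2, 83.8 and 87.3 CPM. The imprinted long RNA H19 was at 52.8, 86.4 and 76.6 CPM in controls and 287, 382 and 279 CPM in Smyd3 ASO tumours, and 142.5 and 113 CPM in the non-R tumours. Igfbp5, a growth factor binding protein, was at 18.4, 28.3 and 41.7 CPM and then 208, 413 and 213 CPM.

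Of the lower genes on no list, 4 long ones are given here, likewise chosen after their values were seen. Kdm4b, a histone demethylase, fell from 82.2, 86.8 and 66.6 CPM to 46.7, 45.2 and 40.6 CPM. Hcfc1, a chromatin adaptor, fell from 255, 228 and 247 CPM to 153, 175 and 150.2 CPM, and Ankrd11 from 256, 247 and 263 CPM to 124, 169 and 134 CPM. Srrm2, of nuclear speckles, was at 1018, 959.7 and 1149 CPM and then 547, 673 and 561 CPM. In the non-R tumours Srrm2 was at 1019 and 845 CPM and Hcfc1 at 220.3 and 194 CPM, closer to the controls than the numbered tumours were. Both genes were called from the numbered tumours, so this nearness cannot be told apart from the effect of that choice. All 4 have transcripts longer than the median of kept genes, and the part of length was not tested. The clock output gene Dbp was at 46.0, 57.2 and 53.4 CPM in controls and 30.2, 19.5 and 23.3 CPM in Smyd3 ASO tumours, and at 16.4 and 21.9 CPM in the non-R tumours; times of collection were not among the labels used here.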
